A study of Gallus gallus with 6 samples.

Results

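The S100 proteins are small calcium-binding proteins, and 8 of their genes were followed through the feather cycle: S100A4, S100A6, S100A9, S100A10, S100A11, S100A13, S100A14 and S100A16. Each gene was found by its symbol among the 23724 genes of the table, and all 8 had a value. The tissue was the papilla ectoderm, the sheet of epidermal progenitor cells that surrounds the dermal papilla at the base of the follicle, dissected from contour feathers of untreated White leghorn chickens. Sampling followed plucking by 3 weeks for early growth, 7 weeks for late growth and 10 weeks for rest, with 2 bulk RNA-seq libraries per phase and 6 in all. The sources do not state if both libraries of a phase came from different birds, so the p values below measure only the spread between libraries, which may be technical. Levels are given as TPM, transcript abundances scaled to the length of the gene and the total of the library, which can be compared between genes. Changes are log2 fold changes of TPM + 1, tested with limma in the 13063 genes with a mean above 1 TPM, and a call means an adjusted p under 0.05.

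An S100 protein carries a pair of EF-hands, the loops that hold calcium, and works mostly as a dimer that docks onto a partner protein when calcium rises. Annexins, which bind membranes, are the best known partners. Most S100 genes lie together near the epidermal differentiation complex, the gene cluster that builds the cornified layers of skin, and several of them are abundant in the epidermis of mammals. S100A10 is an exception to calcium control, because its EF-hands no longer bind calcium and it stays attached to annexin A2.

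Keratins of basal epidermis were abundant in every library, with KRT5 at 2959 TPM or more and KRT14 at 2290.3 TPM or more, but the dissected tissue also held transcripts of other cells. A list of 18 smooth muscle markers took 0.0611 to 0.375% of TPM in the growth phases and 5.78 and 5.94% in the resting libraries, and the red cell list took 0.0813 to 0.134% and then 4.977 and 4.998%. Markers of fibroblasts and dermal papilla took 0.424% in both early growth libraries, 0.0623 and 0.0642% in late growth and 0.628 and 0.635% in rest. In bulk tissue, fewer cells of a type and less RNA per cell cannot be told apart. The depth of the libraries is unknown, since TPM keep no read counts. Early growth replicate 2 lists 814 tested genes at 0 TPM, against 124 in early growth replicate 1 and 405 to 577 in the other libraries.

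Together the 8 genes gave a nearly steady share of the transcriptome, between 0.556 and 0.712% of TPM in all 6 libraries. Its make-up changed in late growth, where S100A10 dropped, and again in the resting phase. 5 genes carried nearly all of this share. S100A6, S100A10, S100A11, S100A14 and S100A16 were above 50 TPM in every library, whereas S100A4, S100A9 and S100A13 stayed below 10 TPM in every library and each had libraries at 0. S100A6 was the most abundant member in all phases. In early growth S100A11 came next, and S100A14, S100A16 and S100A10 followed with library ranges that overlapped. S100A10 already had the lowest mean of these 5 genes in early growth, and in late growth it dropped clear of the others. In rest it rose to the second place, above S100A11, S100A16 and S100A14, whose ranges no longer overlapped.

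**Figure D1:**
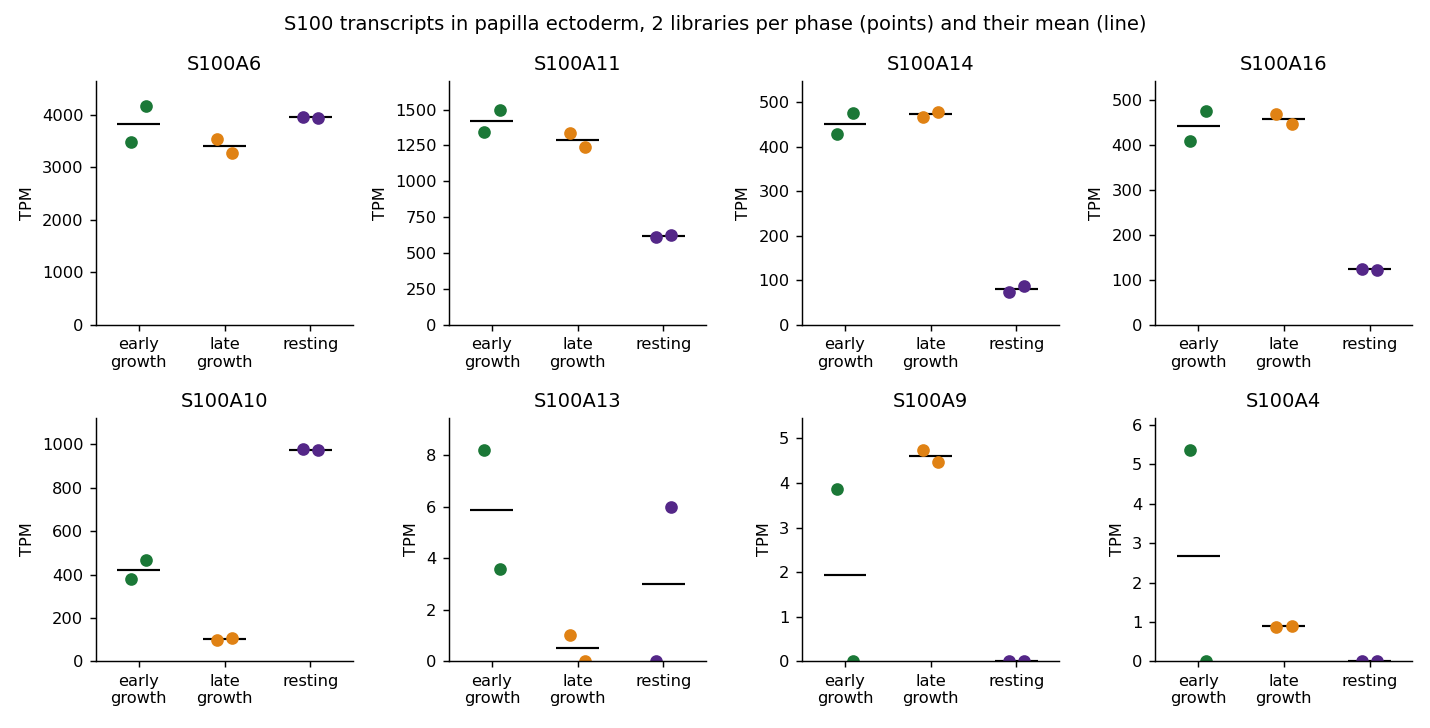
TPM of the 8 S100 genes (vertical axes, linear and starting at 0) by phase of the feather cycle. Points are the 2 libraries of a phase and lines their mean, and S100A14 lies at 428 to 477 TPM in growth and drops to 72.7 and 86.8 TPM in rest.

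Counted over the 8 genes, 0 rose and 1 fell from early to late growth, where 33.6% of all 13063 tested genes were called in either direction (5.24% higher and 28.4% lower). Without early growth replicate 1 the count was 3, and without early growth replicate 2 it was 2. From late growth to rest 1 rose and 4 fell, against 47.8% of all genes (24.7% higher and 23.1% lower). The 4 include S100A9, whose call is only a description because it passed the filter through its growth libraries alone. From early growth to rest 1 rose and 3 fell, against 49.8% (15.8% higher and 34% lower). The split of all genes shifts with median-of-ratios scaling, to 12.8% higher and 15.2% lower from early to late growth and 24.4% higher and 22.5% lower from early growth to rest, while the counts of the 8 genes stay as above. The median log2 fold changes of the 8 genes were −0.15, −0.99 and −1.25, beside −0.31, 0.02 and −0.27 over all tested genes, and these medians include the fitted values of genes listed at 0. The comparisons share libraries, so they are not independent of each other. At the thresholds of the study's methods, a log2 fold change above 2 in size and an adjusted p under 0.01, the calls left were S100A10 lower in late growth, S100A10 higher and S100A14 lower in rest than in late growth, and S100A14 lower in rest than in early growth.

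S100A6 (calcyclin) was among the most abundant transcripts of the tissue and showed no called change. It ranked between place 23 and place 69 of all genes. Its levels were 3477 and 4179 TPM in early growth, 3543 and 3278 TPM in late growth and 3965 and 3938 TPM in rest. The early growth pair overlaps with late growth and encloses the resting pair, while the resting pair lies above the late growth pair. From early to late growth the log2 fold change was −0.16 (95% interval −0.38 to 0.06, adjusted p = 0.22). From late growth to rest it was 0.21 (95% interval −0.01 to 0.44, adjusted p = 0.10), and from early growth to rest 0.05 (95% interval −0.17 to 0.27, adjusted p = 0.66). These calls depend on scaling and on single libraries. With quantile normalization S100A6 fell by 0.57 into late growth (adjusted p = 0.0038) and rose by 0.36 into rest (adjusted p = 0.0070), whereas with median-of-ratios scaling the first of these steps was 0.17 (adjusted p = 0.45). Leaving out early growth replicate 1, the step into late growth was a fall of 0.29 (adjusted p = 0.026). The step into rest was called without either early growth library (adjusted p = 0.024 each time), and also in TPM rescaled without red cell and smooth muscle genes (0.40, adjusted p = 0.013). As a share of the S100 transcripts, S100A6 made up 57.4 to 59.8% in the 4 growth libraries, against 69.0 and 68.5% in rest.

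**Figure D2:**
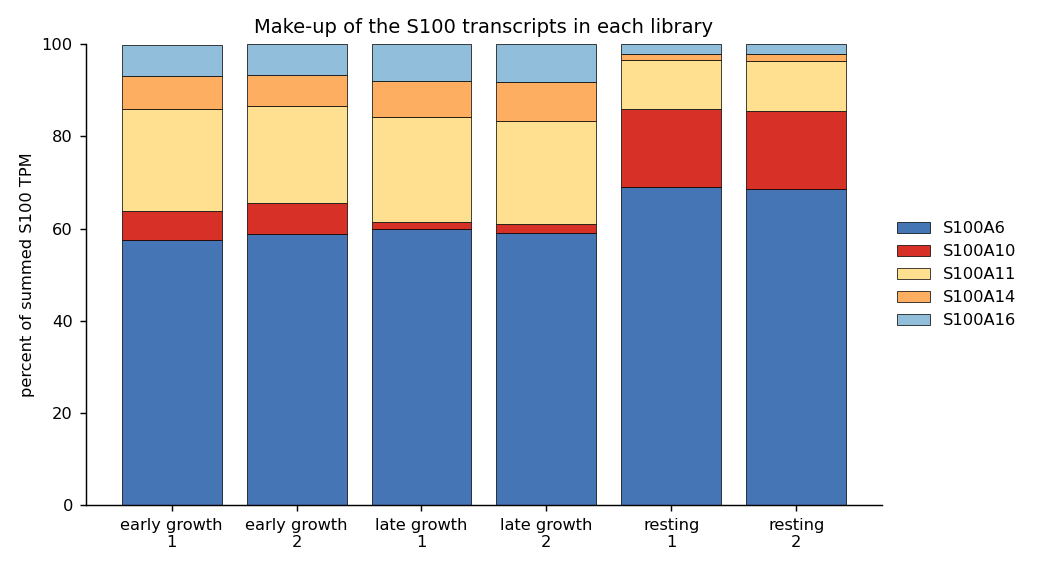
Share of the summed S100 TPM (vertical axis, percent) that each of the 5 abundant genes takes in each of the 6 libraries (horizontal axis). S100A11, S100A14 and S100A16 shrink and S100A10 widens to 17.0 and 16.9% in the resting libraries.

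S100A11, S100A14 and S100A16 showed no called change between the growth phases and fell on entry into rest. S100A14, an S100 protein of epithelia in mammals, was at 428 and 475 TPM in early growth, 467 and 477 TPM in late growth and 72.7 and 86.8 TPM in rest. The growth phases overlap and every resting library lies far below them. Mean TPM was 5.92-fold lower in rest than in late growth, or −2.56 on the log2 scale with a standard error of 0.10 (adjusted p = 1.9e-05). S100A16, which is expressed in many tissues of mammals, had 408 and 475 TPM in early growth, 469 and 447 TPM in late growth and 125 and 122 TPM in rest. Here too only the resting pair stands apart. The fall into rest was 1.89 on the log2 scale (standard error 0.09, adjusted p = 3.2e-05), or 3.72-fold in mean TPM. S100A11 (calgizzarin), first isolated from chicken gizzard and a partner of annexin A1, was at 1344 and 1500.1 TPM in early growth, 1339.8 and 1237 TPM in late growth and 609 and 624 TPM in rest. Its resting level was less than its level in any growth library. Mean TPM was 2.09-fold lower than in late growth, and S100A11 changed by −1.06 on the log2 scale (standard error 0.07, adjusted p = 1.2e-04).

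From early to late growth the same 3 genes moved little in TPM. The log2 fold changes were −0.14 for S100A11 (95% interval −0.32 to 0.04, adjusted p = 0.19), 0.07 for S100A14 (95% interval −0.19 to 0.32, adjusted p = 0.66) and 0.06 for S100A16 (95% interval −0.16 to 0.27, adjusted p = 0.66). Over all tested genes the median at this step was −0.31 in TPM and −0.01 with median-of-ratios scaling, so in TPM all 3 genes lie above the median of genes. S100A11 turned to 0.19 with that scaling (adjusted p = 0.30) and was called lower with quantile normalization (−0.36, adjusted p = 0.0061). Measured straight from early growth to rest, S100A11 fell by 1.202 (adjusted p = 9.9e-05), S100A14 by 2.49 (adjusted p = 3.1e-05) and S100A16 by 1.83 (adjusted p = 4.7e-05). Each of these 6 falls into rest was called in all 16 alternatives, with S100A14 between −2.68 and −2.37 and S100A11 between −1.12 and −0.87 from late growth.

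S100A14 and S100A16 were nearly equal within each growth library and came apart in rest. The ratio of S100A16 to S100A14 lay between 0.937 and 1.005 in the 4 growth libraries and was 1.71 and 1.40 in rest. Such ratios are independent of the scaling of a library. S100A11 stood at 2.59 to 3.16 times the level of S100A14 in the growth libraries and at 8.38 and 7.19 times in rest.

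Epithelial genes outside the family moved at the same step, by amounts and in directions that differ from gene to gene. KRT5 fell by 0.43 on the log2 scale from late growth to rest (adjusted p = 0.0021, and 0.11 with no filter on low values). EPCAM, an adhesion molecule of epithelia, and CDH1 (E-cadherin), both chosen after their values were seen, fell by 1.48 (adjusted p = 3.4e-05) and 1.09 (adjusted p = 2.6e-04). EPCAM was at 517 and 511 TPM in late growth and at 184 TPM in both resting libraries. Set against EPCAM, S100A14 was lower in rest, with a ratio of 0.903 and 0.934 in late growth and 0.396 and 0.471 in rest. For S100A16 the ratio to EPCAM was 0.907 and 0.875 in late growth and 0.678 and 0.660 in rest. The ratio of S100A11 to EPCAM went the other way, from 2.59 and 2.42 to 3.31 and 3.39. Its ratio to CDH1 overlapped between late growth and rest (7.64 and 7.09, then 8.02 and 7.11), after 5.04 and 5.40 in early growth. The ratio of S100A16 to CDH1 was 2.67 and 2.56 in late growth and 1.64 and 1.38 in rest. These resting ratios overlap with those of early growth (1.53 and 1.71). For S100A14 the ratio to CDH1 was 1.60 and 1.71, 2.66 and 2.73, and 0.958 and 0.989 in the 3 phases in order. Against KRT5, all 3 genes had lower ratios in both resting libraries than in any growth library. The part of a changing epithelial share in these falls was not tested. The basal keratinocyte list of 16 genes took 1.33 and 1.40% of TPM in early growth. Its share was 0.985 and 1.02% in late growth and 1.02 and 1.03% in rest. Of its genes 5 were called higher and 7 lower from late growth to rest, with a median log2 fold change of 0.04. Per 100 TPM of this list, S100A14 was at 3.24 and 3.39, 4.75 and 4.70, and 0.719 and 0.853 TPM in the 3 phases in order. S100A16 was at 3.09 and 3.39, 4.77 and 4.41, and 1.23 and 1.19 TPM. S100A11 was at 10.2 and 10.7, 13.6 and 12.2, and 6.03 and 6.13 TPM. On this scale all 3 genes were thus higher in late than in early growth, while their TPM had no called change. The list itself was lower in late than in early growth. Of its genes 2 were called higher and 10 lower into late growth, beside 5.24% and 28.4% of all genes. Among 13 tested markers of differentiating keratinocytes 3 rose and 9 fell from late growth to rest. Over all tested genes 24.7% were called higher and 23.1% lower.

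**Figure D3:**
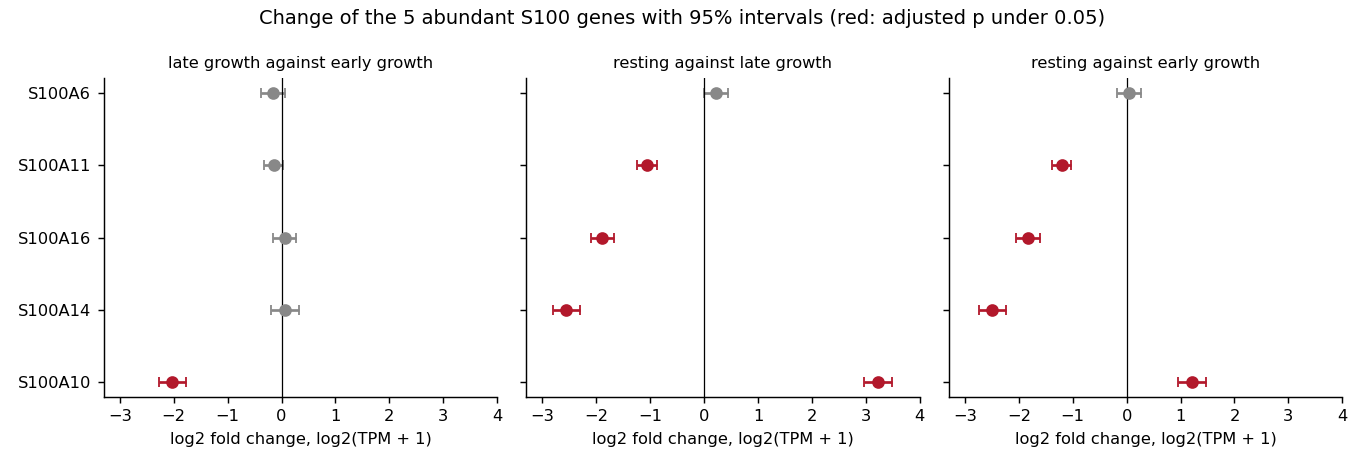
Log2 fold changes on the log2(TPM + 1) scale (horizontal axes) of the 5 abundant S100 genes for the 3 comparisons, with limma estimates as points and 95% intervals as bars. S100A10 passes the test in all 3 comparisons, S100A11, S100A14 and S100A16 in the 2 comparisons with the resting phase, and S100A6 in none.

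S100A10 had a different course, with a dip in late growth and its highest level in rest. This protein (p11) joins annexin A2 in a complex at the cell membrane. Its levels were 381 and 467 TPM in early growth, 99.3 and 107 TPM in late growth and 977 and 973 TPM in rest. No library of a phase overlaps with another phase. S100A10 fell by 2.02 on the log2 scale into late growth (standard error 0.11, adjusted p = 1.7e-04), or 4.11-fold in mean TPM. It then rose by 3.23 into rest (standard error 0.11, adjusted p = 1.0e-05), or 9.47-fold. The resting level was also above that of early growth, by 1.21 (adjusted p = 3.3e-04) or 2.30-fold. All 16 alternatives gave the same direction and call in each comparison, with ranges of −2.17 to −1.69, 3.09 to 3.42 and 1.06 to 1.55.

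Annexin A2, the partner of S100A10, did not share this course. ANXA2 was at 1953 and 2074 TPM in early growth, 1853 and 1877 TPM in late growth and 1102 and 1088 TPM in rest. It showed no called change into late growth (−0.11, adjusted p = 0.14) and fell by 0.77 into rest (adjusted p = 9.7e-05), the step at which S100A10 rose. The first of these values was 0.22 with median-of-ratios scaling (adjusted p = 0.16) and a called fall of 0.35 with quantile normalization (adjusted p = 0.0072). The level of ANXA2 was 5.13 and 4.45 times that of S100A10 in early growth, 18.7 and 17.6 times later in growth and 1.13 and 1.12 times in rest. The transcripts of both partners thus came close to equal in the resting libraries alone.

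**Figure D4:**
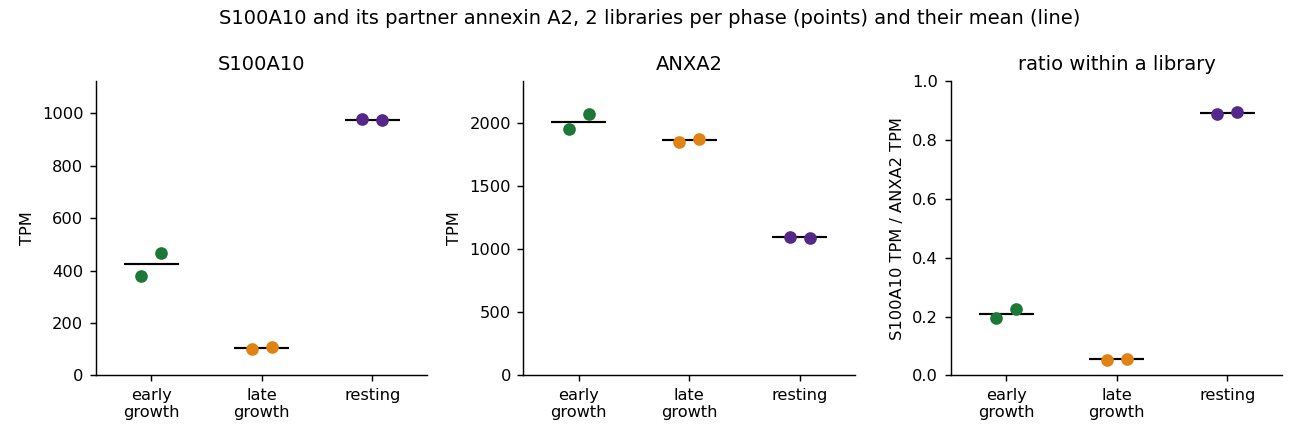
TPM of S100A10 and ANXA2 and their ratio within a library (vertical axes, starting at 0) in the 3 phases, with points for the 2 libraries and lines for the mean. The ratio of S100A10 to ANXA2 starts at 0.195 and 0.225, drops to 0.0536 and 0.0568 in late growth and reaches 0.887 and 0.894 in rest.

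Marker lists of connective tissue, muscle and white blood cells dipped and rose with S100A10. In late growth 24 of 24 fibroblast and dermal papilla markers and 17 of 18 smooth muscle markers fell, and from there to rest all of both lists rose. Over all tested genes 28.4% were called lower into late growth and 24.7% higher into rest. VIM (vimentin), an intermediate filament of mesenchymal cells, was at 707 and 661 TPM in early growth, 96.5 and 91.7 TPM in late growth and 827 and 834 TPM in rest. Among fibroblast markers only MGP was at 0 in both libraries of a phase, which was late growth. The leukocyte list took 0.0629 and 0.0602% of TPM in early growth and 0.113 and 0.103% in rest, with 0.00858 and 0.00839% in the late growth libraries between them. Lists for red cells, for Schwann cells and neurons, and for heterophils and macrophages also had their lowest shares in late growth and their highest in rest. Endothelial markers took 0.0492 and 0.0512%, 0.00438 and 0.00508%, and 0.0251 and 0.0229%, so that their resting share lies below that of early growth, unlike S100A10. The part of these cells in the course of S100A10 was not tested. Per 100 TPM of the basal keratinocyte list there were 2.88 and 3.33 TPM of S100A10 in early growth. This amount was 1.01 and 1.051 TPM in late growth and 9.66 and 9.56 TPM in rest.

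**Figure D5:**
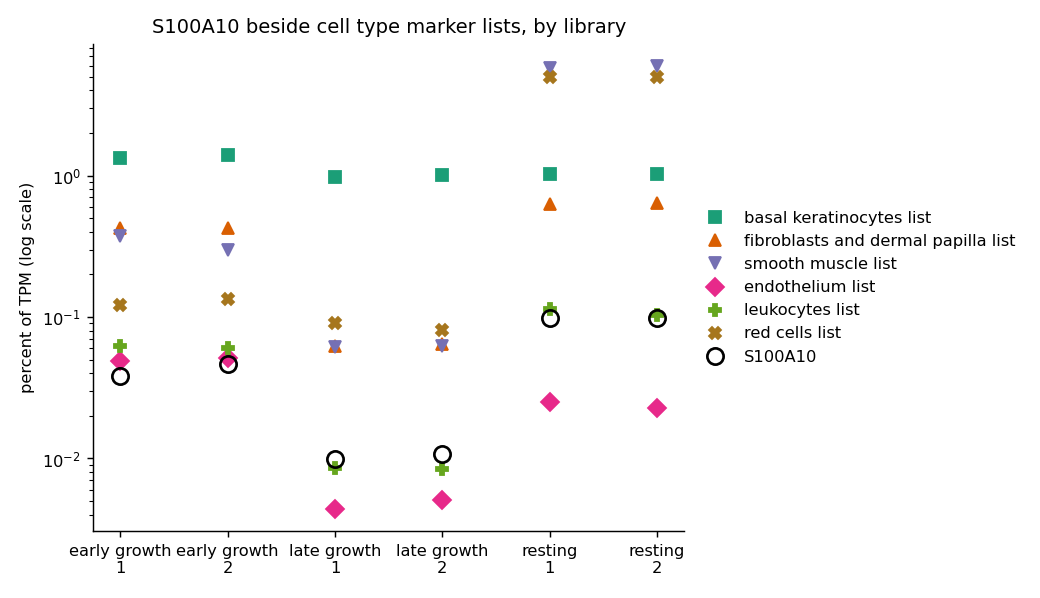
Percent of TPM (vertical axis, log scale) taken by S100A10 and by 6 cell type marker lists in each of the 6 libraries (horizontal axis). S100A10 falls to 0.00995 and 0.0107% in late growth and reaches 0.0988 and 0.0983% in rest. The fibroblast, smooth muscle, leukocyte and red cell lists are also lowest in late growth and highest in rest.

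S100A4, S100A9 and S100A13 were near the floor of the data, and the call of any of them hung on single libraries. Their means over the 6 libraries were 1.19, 2.18 and 3.13 TPM, close to the filter of 1 TPM, so S100A4 and S100A9 were tested only because of their growth libraries. S100A4, a protein of fibroblasts and other mesenchymal cells in mammals that binds non-muscle myosin, was at 5.35 and 0 TPM in early growth, 0.865 and 0.910 TPM in late growth and 0 in both resting libraries. Fibroblast markers had their largest share in rest, and the cells from which S100A4 transcripts came were not tested. No change of S100A4 was called (adjusted p = 0.73, 0.41 and 0.23 for late growth against early growth, rest against late growth and rest against early growth). Leaving out early growth replicate 2, the adjusted p values became 0.010, 0.016 and 0.0019, each for a lower later phase, and with only the 2 phases compared the step into rest had an adjusted p of 0.0092.

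S100A9, a protein of neutrophils in mammals, is listed in the RefSeq chicken table as S100A12 with S100A9 as a synonym. It was at 3.87 and 0 TPM in early growth, 4.73 and 4.46 TPM in late growth and 0 in both resting libraries. The late growth libraries were above all others. S100A9 was called lower in rest than in late growth (adjusted p = 0.032), with no fold given because the resting libraries are at 0. The gene passed the filter on mean level only through its growth libraries, so this call is a description. Without any single library of these 2 phases the adjusted p was 0.14 or 0.15, and it was 0.15 with no filter on low values. Late against early growth had an adjusted p of 0.21, and 0.0041 without early growth replicate 1. Rest against early growth had an adjusted p of 0.23, and 0.0025 without early growth replicate 2. Among 11 heterophil and macrophage markers with a row, MPO, LYZ, LYG2, NCF4 and MMP9 were at 0 in both libraries of some phase. The list as a whole went the other way from S100A9, with 0.0179 and 0.0152% of TPM in late growth and 0.0244 and 0.0237% in rest. Of its 4 tested genes 3 rose and 0 fell from late growth to rest, beside 24.7% and 23.1% of all genes. The cells from which S100A9 transcripts came were not tested.

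S100A13 helps to release FGF1 from cells without a signal peptide in mammals. It was at 8.19 and 3.58 TPM in early growth, 1.04 and 0 TPM in late growth and 0 and 6.002 TPM in rest. The resting pair disagrees, and the early growth pair lies above late growth. No comparison was called (adjusted p = 0.13, 0.48 and 0.30), except rest against early growth without resting replicate 2 (−2.70, adjusted p = 0.046). FGF1 itself was listed at 0 in 5 libraries and at 1.14 TPM in resting replicate 2, the resting library that has S100A13.

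Among the other S100 genes with a row, S100A1 was the only tested one. S100A1, a protein of heart and skeletal muscle in mammals, was at 6.26 and 0 TPM in early growth, 0 in both late growth libraries and 27.7 and 33.1 TPM in rest. The resting libraries stand above all growth libraries, and the gene was called higher there than in late growth (adjusted p = 0.0047) and than in early growth (adjusted p = 0.017). S100A1 passed the filter on mean level only through its resting libraries, so its call for a higher level in rest is a description. With no filter on low values these adjusted p values were 0.055 and 0.12, and without resting replicate 1 or resting replicate 2 the second was 0.089 or 0.10. It rose in the phase in which the smooth muscle list took its largest share. The red cell, fibroblast, leukocyte and Schwann cell lists were also highest in rest, and the source of S100A1 transcripts was not tested. S100B, which marks Schwann cells and melanocytes, and S100Z were listed at 0 in all 6 libraries. The fused-type S100 genes SCFN (scaffoldin) and CRNN (cornulin) stayed below the filter, with SCFN at 0.124 to 0.464 TPM and CRNN at 0 in all libraries but early growth replicate 2 (1.14 TPM).

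The annexins, the membrane-binding partners of the family, included genes that dipped in late growth and genes called lower on entry into rest. Of 8 tested annexins, 0 rose and 5 fell into late growth, where 5.24% of all tested genes were called higher and 28.4% lower. Into rest 5 rose and 2 fell, beside 24.7% and 23.1% of all genes. ANXA1, the partner of S100A11, was at 530.4 and 484 TPM in early growth, 530.5 and 541 TPM in late growth and 290.01 and 327 TPM in rest. Its fall into rest was 0.80 on the log2 scale (adjusted p = 5.8e-04), and ANXA1 and ANXA2 were the annexins that fell at this step. ANXA6, an annexin of muscle and endothelium among other tissues, dipped to 9.53 and 9.27 TPM in late growth from 108 and 118 TPM and reached 239 and 275 TPM in rest. The changes were −3.46 and 4.63 (adjusted p = 3.8e-05 and 4.2e-06). ANXA5, the annexin used to stain dying cells, fell by 1.40 and rose by 1.67 (adjusted p = 3.4e-04 and 5.2e-05), and ANXA11 fell by 0.99 and rose by 2.78 (adjusted p = 0.0014 and 1.2e-05). ANXA8 rose by 2.47 into rest (adjusted p = 1.0e-05), after a fall of 0.32 into late growth (adjusted p = 0.029). With median-of-ratios scaling the fall became 0.011 in the other direction (adjusted p = 0.94). The fall was also not called with quantile normalization (−0.029, adjusted p = 0.80) or with only the 2 phases compared (adjusted p = 0.076). With the replicate number as a block its adjusted p was 0.059. ANXA7 fell by 0.47 and rose by 0.38 (adjusted p = 0.023 and 0.031), and without either late growth library neither step was called (adjusted p of 0.088 to 0.15). A called dip and rise that held in all alternative fits was thus found for S100A10, ANXA5, ANXA6 and ANXA11. It was not particular to them, since MYOF, PLAT and CYBA among the other partners below also had it. From early growth to rest, 4 of the 8 annexins rose and 3 fell, beside 15.8% and 34% of all genes.

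Of 22 other tested targets and receptors of S100 proteins, 1 rose and 9 fell into late growth, and 7 rose and 7 fell into rest. Taken with the annexins, 15 of 30 partners were called from early to late growth, 21 from late growth to rest and 18 from early growth to rest, where 33.6%, 47.8% and 49.8% of all genes were. The 7 that rose into rest and the counts of 21 and 18 include KCNK3. That gene passed the filter on mean level only through its resting libraries, so its calls are a description. The directions depended on scaling as those of all genes did. From early to late growth 1 partner was higher and 14 lower in TPM, against 5 higher and 7 lower with median-of-ratios scaling. From early growth to rest these numbers were 7 and 11, against 11 and 7. The first of these counts was 8 without late growth replicate 1 or late growth replicate 2. CACYBP, the calcyclin-binding protein of S100A6, was at 68.2 and 61.9, 78.2 and 85.4, and 77.5 and 70.3 TPM in the 3 phases in order. No change was called for it in TPM (adjusted p = 0.065, 0.32 and 0.21), while with median-of-ratios scaling it rose by 0.65 into late growth (adjusted p = 0.0066) and was above early growth in rest (0.51, adjusted p = 0.0074). MYH9, the non-muscle myosin to which S100A4 binds, was at 403 and 399, 332 and 356, and 283 TPM in both resting libraries. It was called lower at each step (by 0.22 and 0.28, adjusted p = 0.040 and 0.013), but the first change turned to 0.11 with median-of-ratios scaling (adjusted p = 0.36) and was lost without any single library (adjusted p of 0.071 to 0.18). The second was lost without late growth replicate 2, resting replicate 1 or resting replicate 2 (adjusted p of 0.068 to 0.072), and it was −0.13 with quantile normalization (adjusted p = 0.12) and −0.09 in TPM rescaled without red cell and smooth muscle genes (adjusted p = 0.28).

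Ferlins and plasminogen activators were among the genes on this list with the largest changes. MYOF and DYSF, ferlins that mend membranes together with annexins, fell into late growth by 3.45 and 1.23 (adjusted p = 0.0012 and 0.0045). They rose into rest by 2.86 and 2.71 (adjusted p = 8.0e-04 and 1.0e-04). In late growth MYOF was at 1.17 and 0.282 TPM and DYSF at 4.56 and 4.38 TPM, levels at which counting error cannot be weighed. With quantile normalization the fall of DYSF was 0.67 and no longer called (adjusted p = 0.051). PLAT, the tissue plasminogen activator whose activity S100A10 and annexin A2 raise at the cell surface in mammals, fell by 2.33 and rose by 2.28 (adjusted p = 0.0027 and 0.0012). Its levels were low throughout, at 9.94 and 7.44, 1.21 and 0.655, and 8.36 and 8.24 TPM. PLAU (urokinase), the other plasminogen activator, was at 51.4 and 49.3 TPM in early growth, 21.8 and 25.4 TPM in late growth and 3.58 and 2.18 TPM in rest. It fell at both steps, by 1.07 and 2.68 (adjusted p = 0.016 and 2.5e-04). The first change was −0.74 with median-of-ratios scaling (adjusted p = 0.053) and −0.75 with quantile normalization (adjusted p = 0.056), so it was called in neither. It was not called with no filter on low values either (adjusted p = 0.068). Without late growth replicate 1 the first change of PLAU was −0.96, and without late growth replicate 2 it was −1.17. These fits leave a single late growth library, so only the size of the change is given here. KCNK3, a potassium channel that S100A10 binds, was at 0.491 TPM or less during growth but at 11.8 and 17.8 TPM in rest. It was tested only because of its resting libraries, so no p is given for it. CYBA, a subunit of the NADPH oxidase, fell by 1.16 and rose by 1.38 (adjusted p = 0.0023 and 4.7e-04), and TPM1, a tropomyosin of contractile cells, rose by 1.95 into rest (adjusted p = 3.1e-05).

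The genes with the most similar course were sought for each member among 11422 tested genes with a symbol, as the smallest root mean square difference of log2(TPM + 1) over the 6 libraries after centring on the mean of the gene. For S100A14 these were ELOVL6, which elongates fatty acids, CYP51A1 of cholesterol synthesis and CPM, a membrane carboxypeptidase (differences of 0.05, 0.09 and 0.11). ELOVL6 was at 88.6 and 95.8, 90.0 and 97.9, and 13.3 and 16.1 TPM. Closest to S100A16 were CLDN17, a claudin, DBI, which binds acyl-CoA, and NT5DC1 (0.08, 0.09 and 0.09). CLDN17 was low, at 4.77 and 4.78, 5.40 and 4.65, and 0.786 and 0.617 TPM. At such levels the 1 TPM added before the logarithm shrinks a change, so likeness on this scale is not likeness of fold in TPM. For S100A11 they were MAGOH of the exon junction complex, CNOT9 of the CCR4-NOT complex and BUB3 of the spindle checkpoint (0.04, 0.05 and 0.05). S100A10 was followed most closely by CRTAC1, a matrix protein of cartilage, MPPED1 and HSPG2, the basement membrane proteoglycan perlecan (0.10, 0.12 and 0.12). The same limit holds for CRTAC1 and MPPED1, with means of 0.540 and 0.886 TPM in late growth and 15.2 and 14.2 TPM in rest. HSPG2 was at 77.0 and 81.4, 22.1 and 22.1, and 187 and 194 TPM. PPP1R2, HABP4 and UBTD2 were nearest to S100A6 (0.05, 0.06 and 0.06). For the low members the nearest genes were less alike, GHRL, HIST2H3D and ADM2 for S100A4 (0.20, 0.32 and 0.35), TSSC1, KRTAP19-2 and RAD54B for S100A9 (0.15, 0.23 and 0.25), and MIR3537, OGFOD2 and DKK1 for S100A13 (0.55, 0.55 and 0.56). Within the family S100A14 and S100A16 were the most alike (0.33), followed by S100A11 and S100A16 (0.35), and S100A9 and S100A10 the least (2.46).

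Neighbours along the chromosome differed widely in level. In the RefSeq gene table of assembly GRCg7b, a later build than the GRCg6a of the files, all 8 genes and S100A1 lie on the same chromosome, and S100A4, S100A16, S100A14, S100A13 and S100A1 are consecutive protein-coding genes. The row thus holds a pair of abundant growth phase genes, S100A16 and S100A14, between S100A4 and S100A13, which were near 0. S100A14 overlaps S100A13 in that table, S100A4 overlaps its neighbour LOC124417399, and S100A11 overlaps COPA. The library kit does not record the strand, so reads from an overlap cannot be told apart. COPA, which codes for a coat protein of transport vesicles, fell by 0.38 into rest (adjusted p = 0.012, and 0.076 or 0.072 without late growth replicate 2 or resting replicate 1) where S100A11 fell by 1.06, and S100A13 stayed under 10 TPM beside S100A14 at 428 to 477 TPM in growth. CHTOP, the gene next to S100A1, showed no called change into rest in TPM (0.06, adjusted p = 0.59), and a rise of 0.24 in TPM rescaled without red cell and smooth muscle genes (adjusted p = 0.049).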

How the data were processed

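Bulk RNA-seq of papilla ectoderm was available for 6 libraries, 2 in each of 3 phases. According to the methods, libraries were made with the TruSeq RNA v2 kit and sequenced as short single reads, and the authors computed TPM per library with StringTie against GRCg6a. Which aligner was used is unknown here. The deposited TPM were used unchanged (sums of 989472 to 998451 per library over 23724 genes). Their depth is unknown, and values at 0 may be failed estimates.

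Genes with a mean above 1 TPM, the expressed genes of the methods (13063), were tested on log2(TPM + 1) with limma 3.58.1 in R 4.3.3, in a cell-means fit of the 3 phases over all 6 libraries with a variance trend. The DESeq2 test of the methods needs read counts and was not run. P values were adjusted by Benjamini-Hochberg over all tested genes of a comparison, and intervals are 95% intervals of the moderated estimate. With 2 libraries against 2, the smallest two-sided p of an exact permutation for 1 gene is 0.333, so each call rests on the spread shared among genes. The fit was tested on simulated data. The members and gene lists were chosen with earlier results of these data known. Named genes are all S100 genes with a row, up to 4 called genes per partner list and comparison by size of change, 6 direct partners, the 3 nearest in course to each member, and the 2 most abundant genes of a marker list where a result touches it. EPCAM, CDH1, MGP and the gene neighbours were chosen after their values were seen.

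As alternatives, pseudocounts of 0.1 and 0.5 were used, the filter was dropped or raised to 5 TPM, and values were scaled by median-of-ratios, by quantiles, or after removal of red cell and smooth muscle genes. Further fits used the compared phases alone, moderated the variance robustly, took the replicate number as a block, or left out 1 library at a time. These fits are the alternatives given for single genes. Stricter thresholds were tried on the main fit only and are not among them.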

Additional observations from a re-analysis of the deposited data

How the results depend on the processing

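Of 10 changes of S100 genes that were called, 9 kept their direction and call in every alternative fit, the exception being S100A9 from late growth to rest. At the stricter thresholds of the methods, which are not among these fits, only calls of S100A10 and S100A14 were left. The number of members called from early to late growth was 1, and 3 with quantile normalization (S100A6, S100A10 and S100A11), and without single libraries it ranged from 1 to 3. From late growth to rest it was 5, and 2 at the thresholds of the methods, and from early growth to rest 4 and 1. With quantile normalization 25.9% of all tested genes were called from early to late growth (12.3% higher and 13.6% lower). Of partners, 15, 21 and 18 were called in the 3 comparisons, 7, 13 and 11 with a log2 fold change above 1 in size, and 3, 9 and 3 at the thresholds of the methods. Each of these counts for a comparison with rest includes KCNK3, which passed the filter only through its resting libraries. Leaving out single libraries gave 8 to 14 partners from early to late growth, with 8 without late growth replicate 1 or 2. With the replicate number as a block, 12, 20 and 16 partners and 1, 5 and 4 members were called, and no call of a member changed. The share of all genes called was not computed for the block, the stricter thresholds or the fits without single libraries. Counts under those settings therefore cannot be set against all genes. Deviations of same-numbered libraries from the phase mean correlated at −0.029, 0.015 and 0.0083 over genes. Values near 0 over all genes cannot show whether same-numbered libraries share a bird or a batch.

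Some small changes of members that were not called turned direction, and the cause was not tested. From early to late growth, S100A4 became 0.42 with a pseudocount of 0.1 and 0.21 with quantile normalization, S100A6 0.17 and S100A11 0.19 with median-of-ratios scaling. Without single libraries S100A14 ranged from −0.0087 to 0.14 and S100A16 from −0.052 to 0.16 at this step, and S100A13 from −0.51 to 2.29 from late growth to rest and from −2.70 to 0.11 from early growth to rest. S100A6 from early growth to rest became −0.21 with quantile normalization (adjusted p = 0.048) and ranged from −0.081 to 0.18 without single libraries. With the filter at 5 TPM the 3 low members were not tested, and without early growth replicate 1 S100A4 fell under the filter. Of 37 called changes of the other genes named, 26 kept their call in every alternative fit. With median-of-ratios scaling ANXA2, ANXA8 and MYH9 became 0.22, 0.011 and 0.11 from early to late growth. From late growth to rest, CACYBP became 0.039 in TPM rescaled without red cell and smooth muscle genes, and CHTOP ranged from −0.0091 to 0.13 without single libraries. Read depth is unknown, so a change of a gene below 10 TPM cannot be weighed against counting error.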

Other observations

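Of 19 other tested small proteins with EF-hands, 7 rose and 2 fell from late growth to rest, where 24.7% of all genes were called higher and 23.1% lower. The 7 include CALB2, which passed the filter on mean level only through its resting libraries, so its call is a description. From early to late growth 0 rose and 3 fell, beside 5.24% and 28.4% of all genes. The share called was near that of all genes into rest and below it into late growth, and single members are given as values. CALML3, a calmodulin-like protein of epithelia, was at 929 and 984 TPM in early growth, 1047 and 1023 TPM in late growth and 315 and 311 TPM in rest. Like S100A14 and S100A16 it was lower in both resting libraries than in any growth library, and the fall was 1.72 on the log2 scale (adjusted p = 9.6e-06). MYL6, a myosin light chain of smooth muscle and non-muscle cells, was at 1323 and 1273 TPM in late growth. It reached 6883 TPM in both resting libraries (2.41, adjusted p = 1.9e-06), the phase with the largest share of smooth muscle markers. Lists of several other cell types were also highest in rest, and the source of MYL6 transcripts was not tested. NCS1, a calcium sensor of neurons, rose by 1.77 (adjusted p = 7.8e-04), and CALB2 (calretinin) was listed at 0 in the 4 growth libraries and at 1.87 and 4.30 TPM in rest. CAPN2, a subunit of calpain, and CIB1 fell into late growth by 1.06 and 0.78 (adjusted p = 0.0047 and 0.0023), with no called change into rest in TPM (adjusted p = 0.39 and 0.094). CIB1 was called higher in rest with quantile normalization (0.31, adjusted p = 0.024) and in TPM rescaled without red cell and smooth muscle genes (0.40, adjusted p = 0.013).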
